A study of Mus musculus with 14 samples.

Results

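The interferon regulatory factors are a family of transcription factors, here taken as the 8 genes Irf1, Irf2, Irf3, Irf4, Irf5, Irf7, Irf8 and Irf9. They were chosen by name, and each was read from its probe with the highest mean among probes that carry 1 gene symbol. Of the 8 genes, 7 had such a probe, out of 22180 named genes in all. The single probe of Irf5 also carries the symbol of Tnpo3 and was therefore not read. All 7 measured members lay above the floor for dim genes (3.88 on the log2 scale, the median of the whole table) on all 14 arrays and entered the fit across 13805 genes. Irf8 had 2 probes and the others 1 each.

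The cells were Sca1-positive, cKit-negative bone marrow cells sorted by flow cytometry from female NCR-NU mice, a nude strain that lacks a thymus but keeps B and natural killer cells. The 4 groups were young cancer-free (3 arrays), young tumor-bearing (3), old cancer-free (5) and old tumor-bearing (3). The labels call the arrays of a group biological replicates and do not say whether marrow of several mice was pooled. The cancer-free mice carried a Matrigel control, and tumours were matched in size between the ages. Ages in months and the kind of tumour are not given in the sources used here. All 14 arrays share the strain, the sex and the sorting gate. Kit, the receptor that the gate selects against, lay between 5.25 and 7.03 on the log2 scale, above the floor on all arrays. Kit was highest in young tumor-bearing replicate 1. Its group mean was higher with than without a tumour at both ages, and lower in old than in young mice. Young arrays spanned 5.25 to 6.29 without and 6.10 to 7.03 with a tumour. Old arrays spanned 5.25 to 5.96 without and 5.69 to 6.16 with one. The pan-leukocyte gene Ptprc lay between 10.53 and 11.36. Its old tumor-bearing arrays (10.53 to 10.61) lay below all other arrays (10.70 and above). Whether the mix of sorted cells differed between the groups was not tested. Ly6a, which encodes Sca1, was not analysed here. The mean correlation of an array with the other 13 was lowest for young tumor-bearing replicate 1 (0.899) and old tumor-bearing replicate 3 (0.907). The number of arrays limits the precision of all values.

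Family members share an amino-terminal DNA-binding domain and bind variants of the interferon-stimulated response element. Irf3 and Irf7 are phosphorylated after nucleic acid sensing and switch on the interferon genes. Irf9 joins Stat2 in answering type I interferon, Irf1 carries much of the interferon gamma response and Irf2 competes with it. Irf4 and Irf8 act chiefly in cell identity: Irf4 in plasma cells and activated lymphocytes, Irf8 in monocytes, dendritic cells and their precursors, and both bind DNA together with the Ets factors Spi1 and Spib.

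The questions were whether the members differ between old and young hosts and between tumour-bearing and cancer-free hosts. Irf9 and Irf8 had lower means in old than in young mice, and Irf4 had a higher and Irf9 a lower mean with than without a tumour. None of these differences passed the test across all genes. Limma called 0 of 7 members, at an adjusted p under 0.05, in each of the 7 comparisons made. The share of all tested genes called was 0.0869% for the average age difference and 0% in each of the other 6 comparisons. At an unadjusted p under 0.05, limma had 2 of 7 members for average age (Irf8 and Irf9, both lower), where 13.4% of all tested genes were at that level and 8.97% were so with lower values in old mice. It had 2 of 7 for the average tumour difference (Irf4 and Irf9; 10.2% of all tested genes). There was 1 of 7 for age in cancer-free mice (Irf9; 7.66%) and 1 of 7 for age in tumour-bearing mice (Irf8; 10.1%). The count was 0 for tumour at the young age (5.40%), for tumour at the old age (9.76%) and for the change of the tumour effect with age (4.42%). With so few members, these counts are a description and set the family apart from no other genes.

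**Figure D1:**
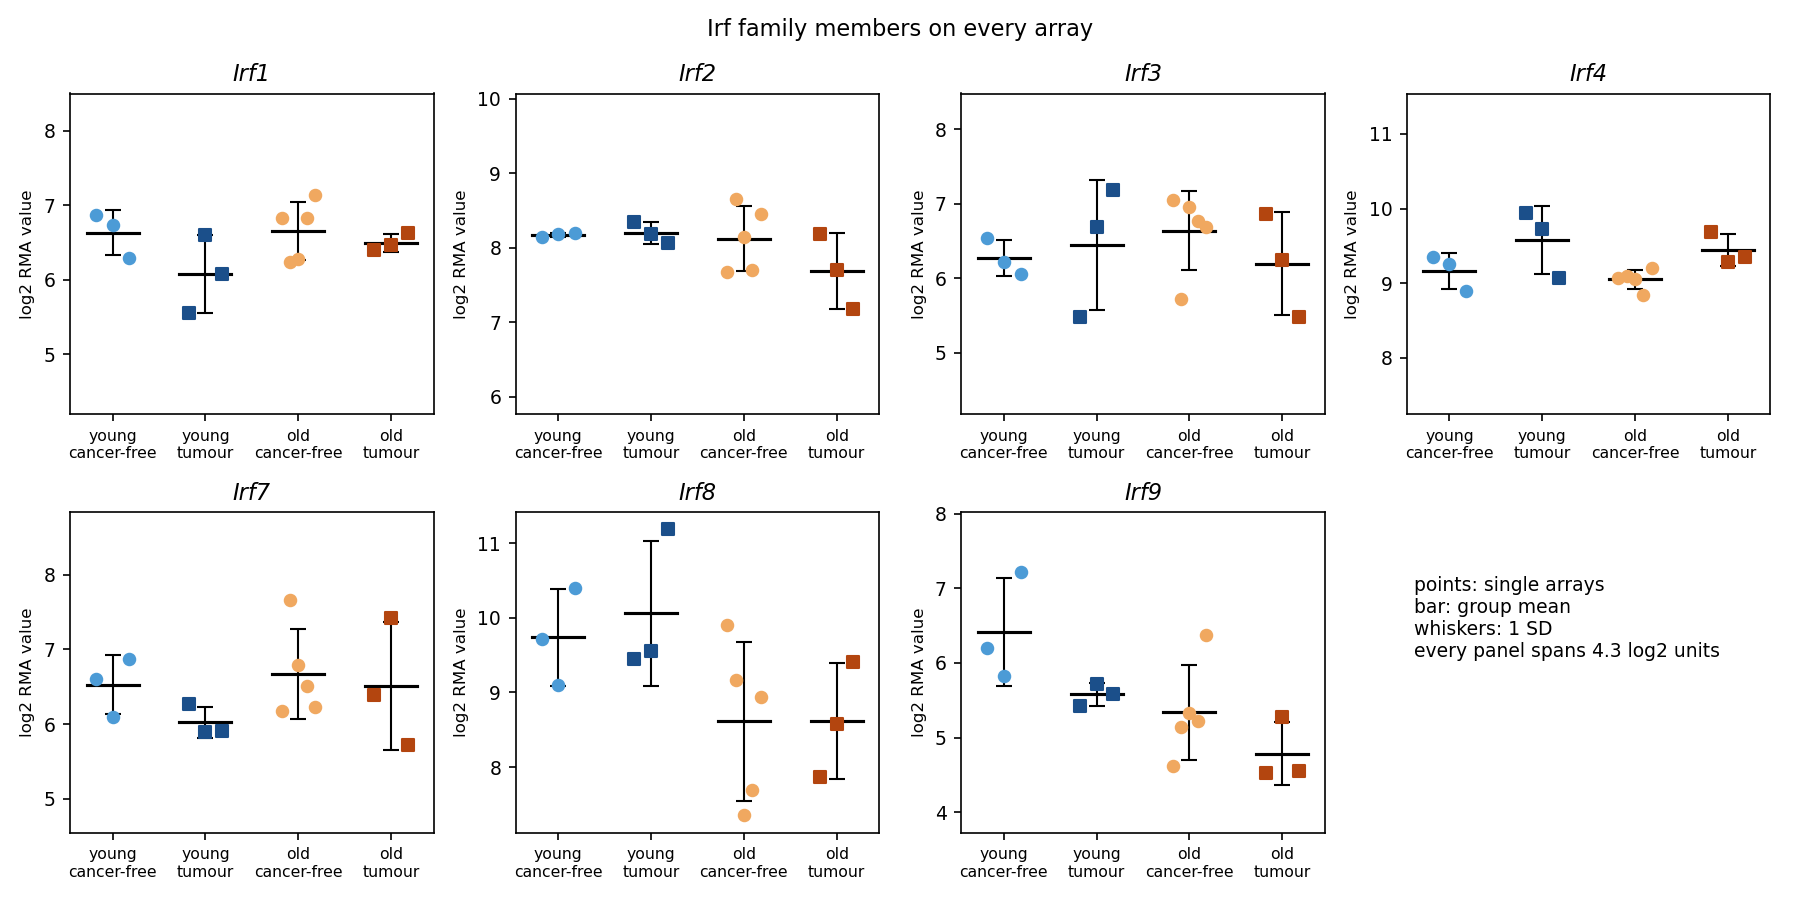
Log2 RMA value of each measured family member on every array, in 4 groups of 3, 3, 5 and 3 arrays. Points are arrays, bars group means and whiskers 1 SD; every panel spans the same number of log2 units, so the wide scatter of Irf8 (7.35 to 11.19) and the narrow range of Irf4 (8.84 to 9.94) can be compared.

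Irf9, the DNA-binding partner of Stat2 in the type I interferon response, had the smallest unadjusted p for average age among the brightest probes of the 7 members. On the log2 scale, its level was 6.20, 5.83 and 7.22 in young cancer-free mice and 5.42, 5.72 and 5.58 in young tumor-bearing mice. In old mice it was 4.61, 5.14, 5.34, 5.22 and 6.37 without and 4.53, 5.27 and 4.55 with a tumour. Young cancer-free arrays were the highest as a group, and old tumor-bearing arrays the lowest. From the highest group mean to the lowest, the values were young cancer-free 6.41 ± 0.72, young tumor-bearing 5.58 ± 0.15, old cancer-free 5.34 ± 0.64 and old tumor-bearing 4.78 ± 0.42 (mean ± SD; n = 5 in old cancer-free mice and n = 3 in the others). Of the steps between neighbours in that order, only that between the young groups exceeded the larger of the group SDs (0.84 against 0.72). The difference of the young groups was -0.43 when young cancer-free replicate 3 was left out.

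As the mean over both tumour states, Irf9 was lower in old mice (a log2 difference of -0.94 ± 0.27, SE, or 1.92-fold), with a 95% interval of -1.53 to -0.35. The adjusted p was 0.180 in limma (unadjusted p = 0.00423), so it did not pass. The difference was -1.08 ± 0.37 in cancer-free mice and -0.80 ± 0.41 in those with tumours, with adjusted p = 0.581 and 0.529 in limma. The former was -0.68 when young cancer-free replicate 3 was left out. All 3 old tumor-bearing arrays lay below all 3 young tumor-bearing arrays, while in cancer-free mice old replicate 5, at 6.37, lay within the young range. Tumour-bearing mice had a lower mean than cancer-free mice, with a difference of -0.70 ± 0.27 on average (adjusted p = 0.419 in limma), -0.84 ± 0.41 in young and -0.56 ± 0.37 in old mice. The latter was -0.30 without old cancer-free replicate 5. The 3 young tumor-bearing arrays lay below all 3 young cancer-free arrays. Groups without overlap were 1 of 7 members for tumour in young mice (12.9% of all tested genes), 1 of 7, Irf4, for tumour in old mice (6.15%), 2 of 7, Irf8 and Irf9, for age in tumour-bearing mice (13.0%) and 0 of 7 for age in cancer-free mice (7.30%). Stat2, its partner, differed by -0.34 ± 0.25 for age and 0.02 ± 0.25 for tumour (adjusted p = 0.593 and 0.982 in limma).

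Irf8, which directs monocyte and dendritic cell fate and restrains the neutrophil fate, had the largest age difference of the family. Its brighter probe read 9.71, 9.10 and 10.40 in young cancer-free and 9.44, 9.56 and 11.19 in young tumor-bearing mice. In old mice it read 9.91, 9.16, 7.35, 7.69 and 8.94 without and 7.86, 8.57 and 9.41 with a tumour. The highest array, young tumor-bearing replicate 3, and the lowest, old cancer-free replicate 3, were 3.83 log2 units apart (14.2-fold), the widest range among the members. Its group means, in falling order, were young tumor-bearing 10.06 ± 0.97, young cancer-free 9.74 ± 0.65, old tumor-bearing 8.62 ± 0.78 and old cancer-free 8.61 ± 1.06 (mean ± SD; n = 5 in old cancer-free mice and n = 3 in the others). In that order only the step from young cancer-free to old tumor-bearing exceeded the larger SD (1.12 against 0.78), and those groups overlapped.

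The average age difference of Irf8 was -1.29 ± 0.44 (2.44-fold lower in old mice, 95% interval -2.23 to -0.35, adjusted p = 0.238 in limma). It was -1.13 ± 0.58 in cancer-free mice and -1.45 ± 0.65 in those with tumours (adjusted p = 0.670 and 0.474 in limma). Without young tumor-bearing replicate 3, the highest array, the difference in tumour-bearing mice was -0.89. In tumour-bearing mice all 3 old arrays lay below all 3 young arrays, by a narrow margin (9.41 and 9.44 were the nearest), and in cancer-free mice old replicates 1 and 2 lay within the young range. The average tumour difference was 0.16 ± 0.44, with a 95% interval of -0.78 to 1.11 that leaves room for a change of either sign. In sorted cells measured in bulk, fewer cells of a type and less RNA per cell cannot be told apart.

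The dimmer Irf8 probe gave a like age difference. It read 8.12, 7.54 and 8.46 in young cancer-free and 7.26, 7.62 and 8.81 in young tumor-bearing mice, against 7.91, 6.04, 6.58, 6.81 and 7.39 in old cancer-free and 6.57, 6.32 and 6.16 in old tumor-bearing mice. Its average age difference was -1.32 ± 0.31 (unadjusted p = 0.000715, adjusted p = 0.0895 in limma), -1.09 ± 0.41 in cancer-free mice and -1.55 ± 0.46 in those with tumours, with smaller SEs than those of the brighter probe. The probes did not order the old arrays alike: old cancer-free replicate 2 and old tumor-bearing replicates 2 and 3 were the lowest arrays of the dimmer probe (6.04 to 6.32), yet read 8.57 to 9.41 on the brighter one. For tumour the signs of the probes differed, at -0.37 ± 0.31 for the dimmer and 0.16 ± 0.44 for the brighter one. The probe table gives no position in the transcript for either.

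The window of 250 bases before to 50 bases after a RefSeq start site (GRCm38.p6) was searched, on both strands, for the gamma-activated sequence TTCNNNGAA that STAT dimers bind, for the interferon-stimulated response element written as GAAA, any 2 bases and GAAA, and for the Ets-IRF composite element written as GGAA, any 2 bases and GAAA. The 8 members have 11 such windows. The first motif was in 3 of 11 (Irf1, Irf2 and Irf8; 8.30% of all 32851 windows), and the other 2 motifs were each in 1 of 11 windows, that of Irf2 (3.44% and 2.72% of all windows). The stretch before the upstream start site of Irf8, with its 2 matches in capitals, 171 and 153 bases before the start, is shown beside that of Irf9, which holds none of the 3 motifs, because these genes had the largest age differences. The Irf8 stretch lies at chr8:120736108-120736357 and the Irf9 stretch at chr14:55603735-55603984, both on the plus strand.
Irf8: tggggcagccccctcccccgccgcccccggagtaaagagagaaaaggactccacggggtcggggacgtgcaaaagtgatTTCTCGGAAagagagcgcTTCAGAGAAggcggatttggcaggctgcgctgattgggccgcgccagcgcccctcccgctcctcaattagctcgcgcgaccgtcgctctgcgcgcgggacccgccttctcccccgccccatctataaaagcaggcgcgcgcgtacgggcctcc
Irf9: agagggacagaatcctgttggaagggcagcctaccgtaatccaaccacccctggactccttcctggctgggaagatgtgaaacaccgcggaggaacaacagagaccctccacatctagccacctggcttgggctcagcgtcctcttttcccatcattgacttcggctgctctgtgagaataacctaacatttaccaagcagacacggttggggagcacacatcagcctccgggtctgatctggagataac
The matches are letters in a window and not measured binding, and their absence from the Irf9 window says only that these letters are not there. Neither gene was called in any comparison.

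Irf4, needed for plasma cell formation and for activated T cells, had the smallest within-group spread of the family and a higher mean with than without a tumour at both ages. Its log2 level was 9.35, 9.25 and 8.90 in young cancer-free and 9.94, 9.72 and 9.07 in young tumor-bearing mice. In old mice it was 9.07, 9.09, 9.05, 8.84 and 9.20 without and 9.68, 9.28 and 9.35 with a tumour. All 3 old tumor-bearing arrays lay above all 5 old cancer-free arrays, while young tumor-bearing replicate 3, at 9.07, lay within the young cancer-free range. The average tumour difference was 0.40 ± 0.15 (95% interval 0.07 to 0.73, adjusted p = 0.411 in limma, unadjusted p = 0.0199). It was 0.41 ± 0.23 in young and 0.39 ± 0.20 in old mice. The young value was 0.23 without young tumor-bearing replicate 1 and 0.66 without replicate 3. The former, the highest Irf4 array of all (9.94), was also the array least correlated with the rest. The difference between the ages was -0.02 ± 0.30 with a 95% interval of -0.67 to 0.63. The Irf4 means, from high to low, were young tumor-bearing 9.58 ± 0.45, old tumor-bearing 9.44 ± 0.21, young cancer-free 9.17 ± 0.24 and old cancer-free 9.05 ± 0.13 (mean ± SD; n = 5 in old cancer-free mice and n = 3 in the others). Only the step from old tumor-bearing to young cancer-free exceeded the larger SD (0.27 against 0.24), with overlap. For age, Irf4 differed by -0.13 ± 0.15 (95% interval -0.45 to 0.20, adjusted p = 0.758 in limma).

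Markers of plasma cells, where Irf4 is abundant, were read beside it. For tumour in old mice all 8 tested had a positive difference, with a median of 0.53, 2 at an unadjusted p under 0.05 and 0 called in limma. In young mice 4 were positive and 4 negative, with a median of -0.02, while the Irf4 difference was positive. For the average tumour difference all 8 were positive, with a median of 0.21 and 0 called in limma. The median of all tested genes was -0.01. Their mean level ranged over 9.11 to 9.56 in young cancer-free, 8.97 to 9.59 in young tumor-bearing, 8.56 to 9.47 in old cancer-free and 9.48 to 9.78 in old tumor-bearing arrays. None of the 8 was under the floor on all arrays. The list mean was highest in the old tumor-bearing group, whereas Irf4 was highest in the young one. T cell markers, of the other cells known to use Irf4, had a median average tumour difference of -0.40 (8 of 10 negative, 0 called). The median was -0.90 in young mice (9 of 10 negative) and -0.11 in old mice (6 of 10 negative). Their mean levels were 7.41 to 8.24 and 6.74 to 7.68 in young and 7.44 to 8.61 and 7.87 to 8.24 in old arrays, cancer-free before tumor-bearing. B cell markers had a median of -0.10, mean levels of 6.84 to 7.35 and 6.71 to 6.99 in young and 6.49 to 7.26 and 6.59 to 6.94 in old arrays, and Vpreb1 under the floor on all of them. The part of these cell types in the Irf4 values was not tested.

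**Figure D2:**
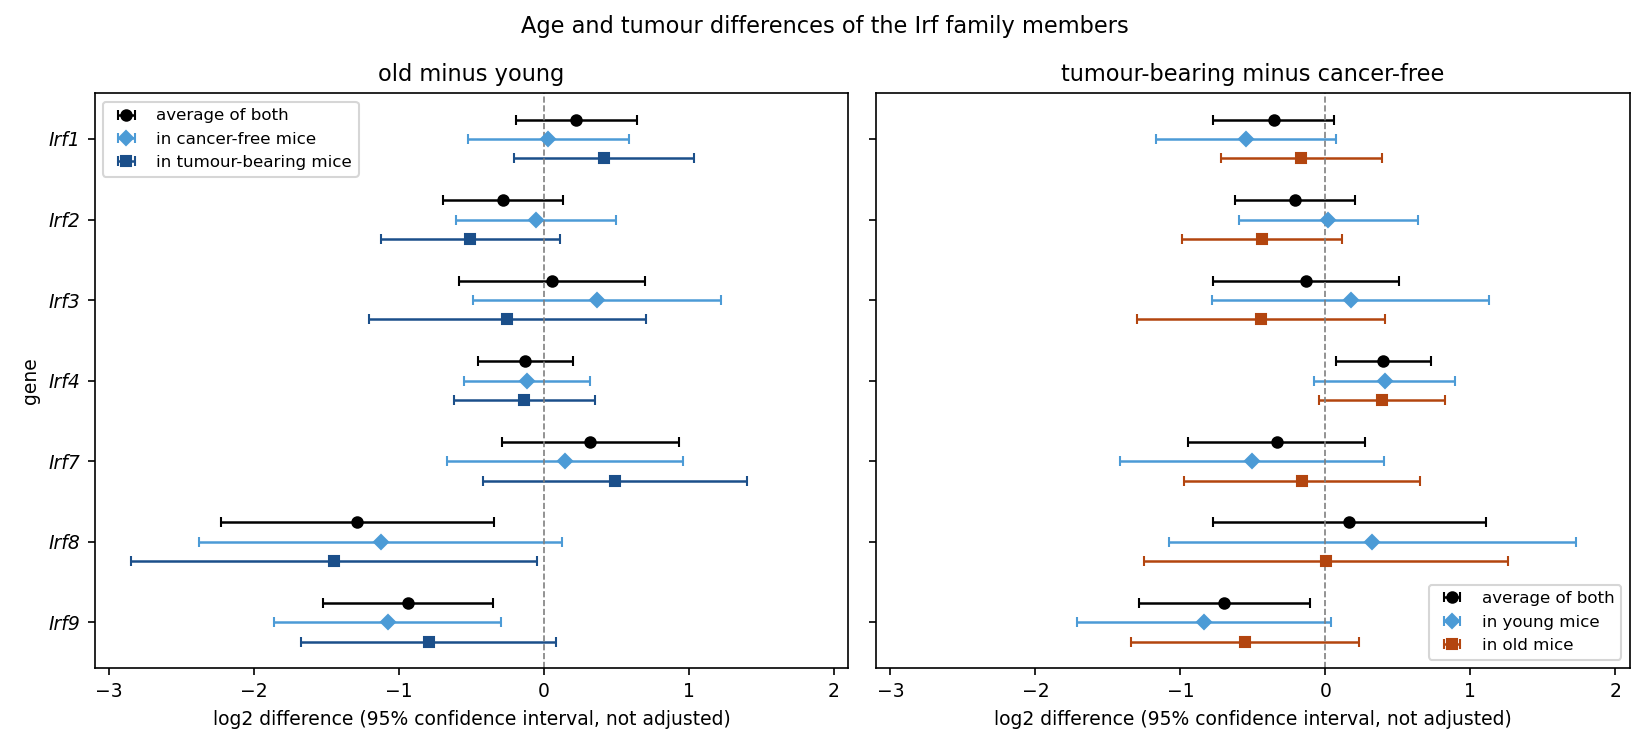
Log2 differences of each member between old and young (left) and between tumour-bearing and cancer-free mice (right), averaged and within each stratum, with 95% confidence intervals not adjusted for the number of genes. The average intervals of Irf8 and Irf9 for age, and of Irf4 and Irf9 for tumour, lie on one side of 0; the adjusted p of each was at least 0.180.

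Irf7 and Irf3 act directly behind the nucleic acid sensors. Irf7, itself induced by interferon and abundant in plasmacytoid dendritic cells, read 6.60, 6.10 and 6.88 in young cancer-free and 6.27, 5.89 and 5.90 in young tumor-bearing mice. It read 6.18, 7.66, 6.79, 6.51 and 6.22 in old cancer-free and 6.38, 7.43 and 5.72 in old tumor-bearing mice. Old cancer-free replicate 2 and old tumor-bearing replicate 2 stood highest, at 7.66 and 7.43, and the other 12 arrays lay between 5.72 and 6.88. The average differences were 0.32 ± 0.28 for age and -0.33 ± 0.28 for tumour (adjusted p = 0.668 and 0.698 in limma). Unlike Irf8, Irf7 had a positive age difference in both strata (0.15 ± 0.38 in cancer-free mice and 0.49 ± 0.42 in those with tumours), although neither passed and the intervals of -0.67 to 0.96 and -0.42 to 1.40 hold values of both signs. In cancer-free mice the sign rested on single arrays, since the difference was -0.10 without old replicate 2 and -0.07 without young replicate 2. In tumour-bearing mice it was 0.03 without old replicate 2. On old cancer-free replicate 2 and old tumor-bearing replicate 2, the mean of the type I interferon response list was 5.01 and 4.90. Each was the lowest value of its group. The cause of the high Irf7 values was not tested.

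Irf3, made at a steady level in most cells and activated by the kinase Tbk1, had values that overlapped between all 4 groups. It read 6.54, 6.22 and 6.06 in young cancer-free, 5.48, 6.68 and 7.18 in young tumor-bearing and 6.86, 6.25 and 5.48 in old tumor-bearing mice. In old cancer-free mice it read 7.05, 5.73, 6.96, 6.77 and 6.70, where replicate 2 lay 0.97 below the next array. No step between neighbouring group means exceeded the larger SD. The average differences were 0.06 ± 0.30 for age and -0.14 ± 0.30 for tumour, with 95% intervals of -0.58 to 0.70 and -0.78 to 0.51 (adjusted p = 0.954 and 0.888 in limma).

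Irf1, an activator induced by interferon gamma, had its lowest mean in young tumor-bearing mice. Its log2 level was 6.87, 6.73 and 6.29 in young cancer-free, 5.56, 6.60 and 6.08 in young tumor-bearing and 6.39, 6.46 and 6.62 in old tumor-bearing mice. Old cancer-free mice had 6.82, 6.24, 6.27, 6.83 and 7.13. The tumour difference was -0.55 ± 0.29 in young and -0.17 ± 0.26 in old mice, -0.36 ± 0.19 on average (95% interval -0.77 to 0.06, adjusted p = 0.545 in limma), and the groups overlapped at both ages. The lowest of all 14 arrays, 5.56, was young tumor-bearing replicate 1, the array least correlated with the rest. Without it the tumour difference in young mice was -0.29. For age the average difference was 0.22 ± 0.19.

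Irf2, which occupies the same sites as Irf1 and can repress them, was the steadiest member in young mice, at 8.15, 8.18 and 8.20 in young cancer-free and 8.35, 8.18 and 8.06 in young tumor-bearing arrays. Old arrays were wider apart, at 7.67, 8.66, 8.14, 7.70 and 8.45 in cancer-free and 8.19, 7.70 and 7.18 in tumor-bearing mice. The difference of these spreads was not tested. Old tumor-bearing mice had the lowest mean, 7.69 ± 0.50 (SD, n = 3), against 8.12 ± 0.44 (SD, n = 5) in old cancer-free mice, and these groups overlapped. The age difference was -0.05 ± 0.26 in cancer-free mice and -0.51 ± 0.29 in those with tumours, -0.28 ± 0.19 on average (adjusted p = 0.563 in limma). The lowest array, 7.18, was old tumor-bearing replicate 3, the other array of low correlation, and without it the age difference in tumour-bearing mice was -0.25.

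Irf1 and Irf2 both carry a match to the gamma-activated sequence before their start sites, and Irf2 also holds the other 2 motifs; the stretches are shown with all matches in capitals, for comparison with that of Irf8. The Irf1 stretch, from 125 to 46 bases before the start, lies at chr11:53769889-53769968 and the Irf2 stretch, from 250 to 171 bases before it, at chr8:46739495-46739574, both on the plus strand. In Irf2 the matches to the last 2 of these motifs overlap and form the first run of capitals.
Irf1: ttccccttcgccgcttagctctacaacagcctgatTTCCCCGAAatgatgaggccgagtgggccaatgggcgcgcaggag
Irf2: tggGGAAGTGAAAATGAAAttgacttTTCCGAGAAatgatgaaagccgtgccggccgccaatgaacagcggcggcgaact
These 3 genes with a matching window did not share a direction: for age on average, the difference was positive for Irf1 and negative for Irf2 and Irf8, and none passed the test.

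For no member did the test detect a tumour effect that differed with age. The estimates, old minus young, ran from -0.62 for Irf3 to 0.38 for Irf1, with adjusted p between 0.980 and 0.998 in limma. The intervals were wide, -2.20 to 1.56 for Irf8 and -0.67 to 0.63 for Irf4 at the extremes and hold differences of either sign. Within groups the members also differed in spread. The within-group SD was 0.26 for Irf4, 0.36 for Irf2 and 0.37 for Irf1, near the median of all tested genes (0.34). It was 0.56 for Irf9, 0.58 for Irf7, 0.61 for Irf3 and 0.92 for Irf8, which exceeded that of 97.7% of tested genes.

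The genes most like each member in pattern were taken as those with the highest Pearson r over the 14 arrays among 12032 tested named genes, leaving out small RNAs, predicted genes and the receptors of smell and pheromones. Such maxima over many genes are a description, carry no test and include array effects that all genes share. For Irf8 they were Mpeg1 (r = 0.96, rho = 0.92), the pore-forming perforin-2 gene of phagocytes, Cox6a2 (r = 0.90, rho = 0.91), a cytochrome oxidase subunit that marks plasmacytoid dendritic cells, and Ccnd1 (r = 0.87, rho = 0.88), a cyclin of G1 phase. Irf8 was read here from its brighter probe only. After group means were subtracted, Mpeg1 and Cox6a2 again came first for Irf8 (r = 0.94 and 0.92). The transferrin receptor gene Tfrc followed (r = 0.92, rho = 0.93). For Irf4 they were Rrbp1 (r = 0.90, rho = 0.90), a ribosome-binding protein of the endoplasmic reticulum, Rpn2 (r = 0.87, rho = 0.83), a subunit of the oligosaccharyltransferase of that organelle, and Kctd20 (r = 0.86, rho = 0.85). For Irf9 they were Wdr73 (r = 0.91, rho = 0.86), Gmeb1 (r = 0.86, rho = 0.85) and Trak1 (r = 0.85, rho = 0.68). After subtraction of group means none of the first 3 for Irf4 stayed among its 3 most alike (Fer, Ube4a and Irs2 took their places), while Wdr73 and Trak1 stayed for Irf9.

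The patterns most like the remaining members involved genes of diverse kinds. For Irf1 they were Zscan26 (r = 0.86, rho = 0.77), Fyco1 (r = 0.85, rho = 0.75) and Med10 (r = 0.84, rho = 0.72), for Irf2 Taok2 (r = 0.91, rho = 0.76), Zfp13 (r = 0.88, rho = 0.82) and Unc13d (r = 0.81, rho = 0.83). For Irf3 they were Taz (r = 0.88, rho = 0.88), the tafazzin gene, Ggt6 (r = 0.87, rho = 0.91) and Arfgap1 (r = 0.85, rho = 0.71), and for Irf7 Glyctk (r = 0.80, rho = 0.60), Rtf2 (r = 0.79, rho = 0.53) and Klrc2 (r = 0.78, rho = 0.75). No member was among the 3 genes most alike to another member, on either measure.

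**Figure D3:**
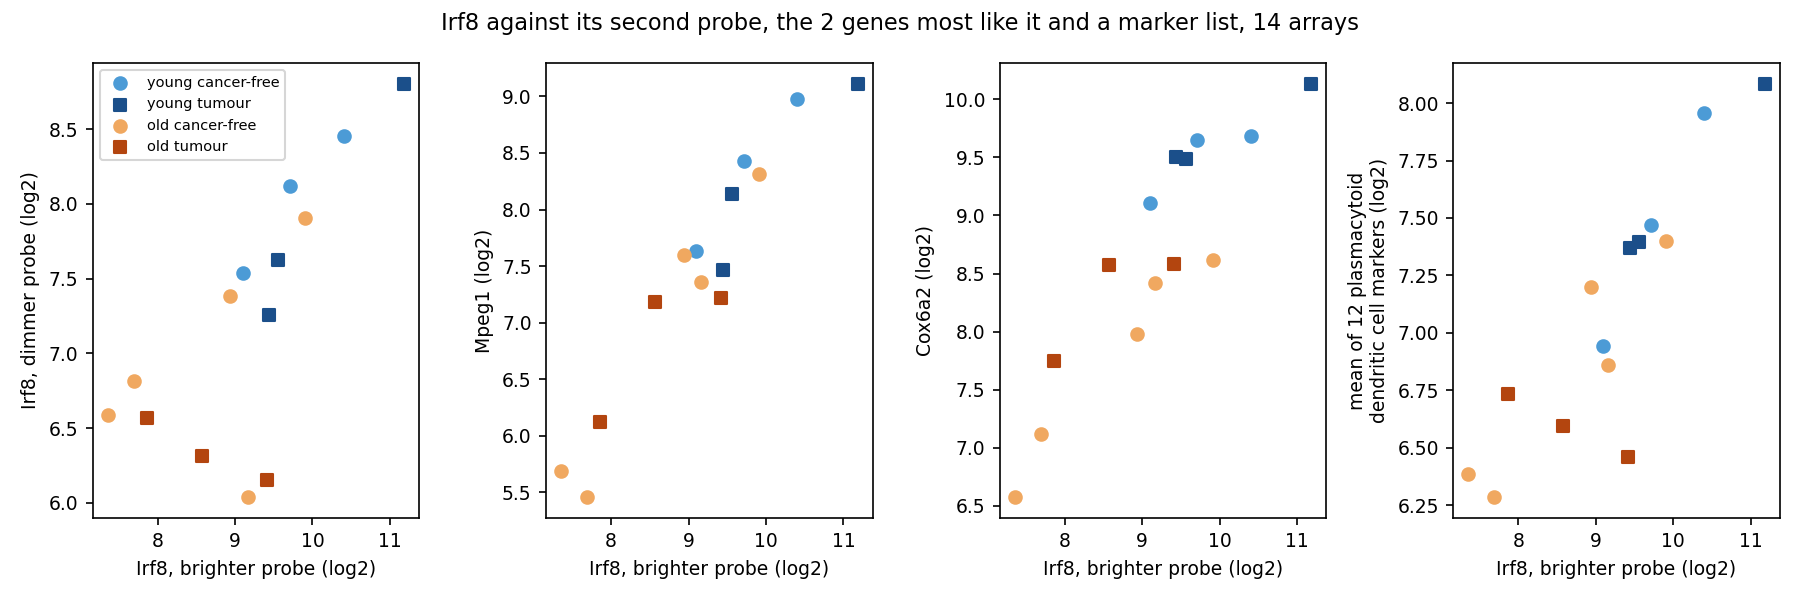
Level of the dimmer Irf8 probe, of Mpeg1, of Cox6a2 and of the mean of 12 plasmacytoid dendritic cell markers against the brighter Irf8 probe, all on the log2 scale, 1 point per array and coloured by group. Mpeg1 follows Irf8 most closely (r = 0.96), and the old arrays that leave the line of the dimmer probe are those with 6.04 to 6.32 on it.

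Beside the Irf8 values, most markers of the cell types that use Irf8 had lower means in old mice. The markers were counted from lists chosen with earlier results of these data known, so their direction is no separate support. For plasmacytoid dendritic cells 12 of 12 tested markers had a negative average age difference, with a median of -0.63 (median of all tested genes -0.01), 7 at an unadjusted p under 0.05 and 0 called in limma. The mean level of the list ranged over 6.94 to 7.96 in young cancer-free, 7.37 to 8.08 in young tumor-bearing, 6.28 to 7.40 in old cancer-free and 6.46 to 6.74 in old tumor-bearing arrays. Siglech, a surface receptor of these cells, lay at -1.46 ± 0.34 and Cox6a2 at -1.57 ± 0.31 (adjusted p = 0.0902 and 0.0680 in limma). None of the 12 was under the floor on all arrays.

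Conventional dendritic cell markers had a median of -0.33 (9 of 10 negative, 0 called), with Itgax at -1.60 ± 0.33 and Flt3 at -1.47 ± 0.30 (adjusted p = 0.0768 for both in limma). Their mean level ranged over 5.72 to 5.98 and 5.76 to 6.05 in young and 5.07 to 5.70 and 5.24 to 5.37 in old arrays, cancer-free before tumor-bearing. Xcr1, a defining receptor of the Irf8-dependent subset, was under the floor on all arrays. Itgax was under it on old tumor-bearing replicate 2 (2.97). Flt3 was under it on old tumor-bearing replicate 1 (3.73) and old cancer-free replicate 3 (3.76). Monocyte and macrophage markers had a median of -0.55 (10 of 12 negative, 1 called), the called gene being the integrin Itgam, which fell by 0.96 ± 0.15 in old mice (adjusted p = 0.0387 in limma). The Itgam call held in 3 of the 14 fits that each left out 1 array, with adjusted p from 0.0250 to 0.125 in limma, the highest without young cancer-free replicate 1. The mean of the monocyte and macrophage list ranged over 6.96 to 7.52 and 7.03 to 7.24 in young and 6.44 to 7.48 and 6.47 to 6.92 in old arrays, and Cd14 was under the floor on all of them. Neutrophil markers, of the fate that Irf8 restrains, had a median of -0.49 (11 of 14 negative, 0 called) and mean levels of 6.21 to 6.60 and 6.11 to 7.16 in young and 5.27 to 7.20 and 5.47 to 6.06 in old arrays. Negative age medians were not confined to these lists. Natural killer cell markers had one of -0.42 (7 of 9 negative) and B cell markers one of -0.07 (8 of 9 negative). The medians of T cell and plasma cell markers were positive, at 0.77 and 0.06. The part of any of these cell types in the Irf8 difference was not tested.

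The pathway around the family was read from lists of its other genes, and limma called 0 genes of these 7 lists in either average comparison. For comparison, 52.0% of all tested genes had a negative average age difference and 51.1% a negative average tumour difference, and 6.01% were lower with a tumour at an unadjusted p under 0.05. Sensors and adaptors, which act upstream, had a median age difference of -0.34 (8 of 10 tested genes negative, 5 at an unadjusted p under 0.05) and a median tumour difference of -0.32 (7 of 10 negative). The endosomal RNA sensor Tlr7 lay at -1.13 ± 0.26 for age (adjusted p = 0.0880 in limma), the DNA sensor Tlr9 at -0.82 ± 0.28 and the adaptor Sting1 at -0.61 ± 0.17. Mavs, the adaptor of the cytosolic RNA sensors, lay at -0.72 ± 0.22 for tumour (adjusted p = 0.370 in limma). The double-stranded RNA sensor Tlr3 and the DNA sensor Cgas were under the floor on all arrays. The kinases and ubiquitin ligases below the sensors had medians of -0.06 for age and -0.08 for tumour, and Tbk1, the kinase of Irf3, lay at 0.25 ± 0.22 and -0.30 ± 0.22.

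Of 7 interferon genes measured, 4 were too dim to test, among them Ifnb1, Ifna2 and Ifnk, which were under the floor on all arrays. The other 3, Ifna1 (5.27 to 6.29 on the log2 scale), Ifna4 (4.99 to 5.51) and Ifng (mean 5.16, highest 6.28), lay above it on all arrays. Average differences were 0.17 ± 0.15 for age and -0.07 ± 0.15 for tumour in Ifna1, and 0.06 ± 0.11 and 0.15 ± 0.11 in Ifna4. Ifng, the ligand whose response Irf1 carries, lay at -0.91 ± 0.34 for tumour (adjusted p = 0.406 in limma, unadjusted p = 0.0166). Receptors, Janus kinases and Stat2 had 8 of 8 negative age differences with a median of -0.22 and 0 at an unadjusted p under 0.05, and a median of -0.07 for tumour. Among the DNA-binding partners, with medians of -0.09 and -0.20 for age and tumour, Spib, the Ets partner of Irf8 and Irf4 in plasmacytoid dendritic and B cells, lay at -2.14 ± 0.54 for age (adjusted p = 0.117 in limma). The AP-1 factors Batf and Batf2, which pair with Irf4 and Irf8, lay at 0.57 ± 0.25 and 0.43 ± 0.13, the opposite sign. Batf2 was near the floor, with young tumor-bearing replicates 1 and 2 under it (3.55 and 3.54). Spib was under the floor on old cancer-free replicate 4 (3.47) and old tumor-bearing replicate 2 (3.11). The lowest Batf array was young tumor-bearing replicate 1 (4.25), the array least correlated with the rest.

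Downstream, type I interferon response genes had a median of -0.16 for age (12 of 19 negative, 3 lower at an unadjusted p under 0.05) and -0.15 for tumour (13 of 19 negative, 4 lower). Bst2, which is also a surface marker of plasmacytoid dendritic cells, lay at -0.99 ± 0.31 for age. Xaf1, a partner of the apoptosis inhibitor Xiap, lay at -0.89 ± 0.36 for age and was also lower with a tumour. Its means were 7.68 and 6.63 in young and 6.73 and 5.79 in old mice, cancer-free before tumor-bearing. The kinase Eif2ak2 lay at -0.56 ± 0.16 for tumour (adjusted p = 0.337 in limma). All its tumor-bearing arrays were under the floor (3.11 to 3.87), so it entered the fit only through cancer-free arrays. Its tumour difference is therefore no separate support, and the tumour counts of this list include it. The mean level of the tested list was 5.35 to 5.49 in young cancer-free, 5.03 to 5.26 in young tumor-bearing, 5.01 to 5.37 in old cancer-free and 4.90 to 5.22 in old tumor-bearing arrays. Young cancer-free arrays thus lay above all young and old tumor-bearing arrays in this list, as they did for Irf9. Interferon gamma response genes had medians of -0.12 and -0.13; Tap2, a peptide transporter, lay at -0.58 ± 0.16 for age, the chemokine Cxcl9 at -1.03 ± 0.44 and Nlrc5, the transactivator of MHC class I genes, at 0.44 ± 0.18. Natural killer cell markers, of a source of interferon gamma, had a median tumour difference of -0.45 (9 of 9 negative, 0 called) and mean levels of 8.30 to 8.64 and 7.63 to 8.32 in young and 7.83 to 8.36 and 7.30 to 7.72 in old arrays; their part in the Irf1 and Irf9 differences was not tested.

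**Figure D4:**
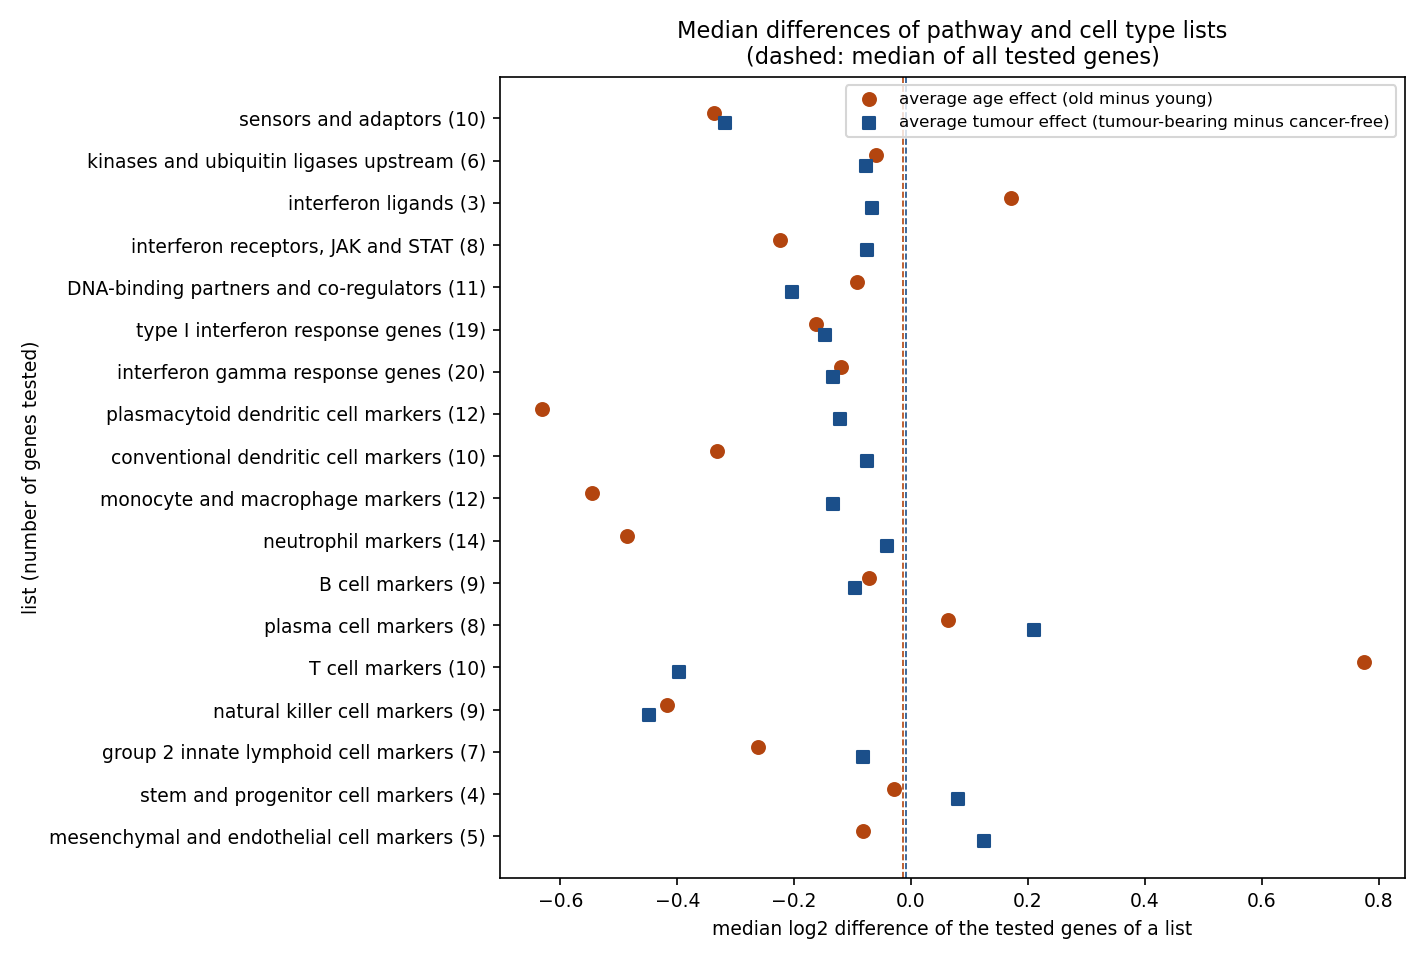
Median log2 difference of the tested genes of each pathway and cell type list, for the average age (circles) and the average tumour comparison (squares); dashed lines are the medians of all tested genes. Plasmacytoid dendritic cell markers had the lowest age median (-0.63) and T cell markers the highest (0.77); numbers in brackets are the genes tested.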

How the data were processed

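The deposited values are log2 expression values of 41345 probes on 14 arrays, 1 array per sample. According to the submitters' processing notes, the authors used R 3.2.0 and oligo 1.32.0 to run RMA on arrays of RNA amplified with the Nugen Ovation Pico WTA system, per the labels' protocols. Amplification of very little RNA can widen the spread between arrays. The array's genome build and which arrays were normalised together are not given in the sources used here. Platform annotation gave 1 symbol to 23521 probes, several to 1814 and none to 16010. Each gene was read from its brightest probe, and genes above 3.88 on at least 3 arrays were tested.

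Limma 3.58.1 in R 4.3.3 fitted the 4 group means, with 7 contrasts and Benjamini-Hochberg adjustment over all tested genes within each contrast, two-sided, at 0.05. It was tested on simulated data. Intervals are at 95% and unadjusted. The p-values measure the spread between these arrays. Named were all members, up to 4 genes of each list with the smallest p, called list genes, and the 3 genes most alike. The members and lists were chosen with earlier results of these data known. Deviations of same-numbered arrays from their group means correlated between -0.08 and 0.09, so the replicate numbers were not taken to pair arrays. Alternatives covered the filter, normalisation, variance model, array weights, probe rule, groups fitted, the replicate block and each array left out. The fits without the 2 least correlated arrays and with the dimmer Irf8 probe were chosen after seeing the data. Promoter sequences are from RefSeq (GRCm38.p6).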

Additional observations from a re-analysis of the deposited data

Results flagged for a closer look

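In Irf3, the lowest of the 5 old cancer-free arrays, replicate 2 at 5.73, stood away from the others. Its gap to the nearest of them was 0.7307 of the range of the group, above Dixon's critical value for 5 values. The check was made once for each of 7 members in this group, and chance alone gives about 1 such array in 20 groups. The same array had the highest old cancer-free values of Irf2 (8.66) and Irf7 (7.66).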

How the results depend on the processing

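Limma called 0 of 7 members in each of the 7 comparisons under all 26 settings. Of 1204 member differences under alternatives 0 were called (smallest adjusted p 0.0895, the dimmer Irf8 probe for average age) and 60 had the opposite sign, in 19 of 49 results. For average age, Irf8 ranged from -1.64 to -1.01 and Irf9 from -1.09 to -0.74, both at an unadjusted p under 0.05 in 24 of 24 alternatives. Irf4 (0.31 to 0.53) and Irf9 (-0.84 to -0.49) for average tumour were so in 20 of 24. Without the 2 least correlated arrays, neither was at that level for average tumour. With the replicate block the smallest adjusted p was 0.123, and calls over all genes for average age went from 12 to 0. Those calls ranged from 0 to 74 with 1 array left out, were 27 with the stricter filter, 6 with cyclic loess, 65 with median centring, 57 with array weights and 43 without the 2 least correlated arrays.

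Signs turned when 1 array was left out, with these ranges. For tumour in young mice they were Irf2 -0.0545 to 0.088, Irf3 -0.19 to 0.66 and Irf8 -0.24 to 0.66. In old mice they were Irf7 -0.62 to 0.23 and Irf8 -0.39 to 0.38. For age in cancer-free mice they were Irf1 -0.14 to 0.15, Irf2 -0.19 to 0.061 and Irf7 -0.10 to 0.32. In tumour-bearing mice they were Irf3 -0.74 to 0.11 and Irf4 -0.39 to 0.044. For the difference of tumour effects they were Irf4 -0.27 to 0.16, Irf7 -0.12 to 0.74, Irf8 -0.72 to 0.24 and Irf9 -0.12 to 0.58. For average tumour they were Irf3 -0.32 to 0.11 and Irf8 -0.12 to 0.35, and for average age Irf3 -0.18 to 0.24.

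Other settings also turned signs. Median centring gave Irf2 -0.028 for tumour in young mice, Irf8 -0.055 for tumour in old mice and Irf1 -0.011 for age in cancer-free mice. Array weights gave -0.0011, -0.062 and -0.013 for the same results, and 0.11 for the Irf4 difference of tumour effects. The replicate block gave Irf1 0.048 and Irf8 -0.19 for tumour in old mice and Irf1 -0.18 for age in cancer-free mice. Cyclic loess gave Irf2 0.093 and Irf4 0.0081 for age in cancer-free mice. The mean of the Irf8 probes gave -0.30 for tumour in old mice and -0.10 for average tumour, and the dimmer probe -0.60 and -0.37, with -0.14 for tumour in young mice. Without the 2 least correlated arrays the values were Irf2 -0.0545 for tumour in young mice, Irf7 0.23 and Irf8 -0.39 for tumour in old mice, Irf4 0.088 for age in tumour-bearing mice, Irf4 0.21 for the difference of tumour effects, and Irf3 0.29 for average tumour and -0.0049 for average age. The cause was not tested.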
